A study of Mus musculus with 9 samples.

Results

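The 10 genes that carry the signal between Toll-like receptors and the transcription factors NFκB and IRF3 were examined here in RAW264.7 macrophages, a transformed mouse macrophage line that arose from a tumor induced by Abelson murine leukemia virus. The genes were taken by their symbols, and all 10 were found among the 55401 gene identifiers of the table. They encode the interleukin-1 receptor-associated kinases (Irak1, Irak2, Irak3, Irak4), the ubiquitin ligase adaptors Traf3 and Traf6, the kinase TAK1 (Map3k7) with its adaptor Tab2, and the IKK-related kinases TBK1 (Tbk1) and IKKε (Ikbke). Wild-type cells of this 1 line were given the vehicle DMSO, DMSO with lipopolysaccharide (LPS, a bacterial cell wall component that activates TLR4), or LPS with skatole (Ska, a methylated indole), each for 24 h per the labels. Each group held 3 samples, numbered 5, 6 and 7, and the labels do not say that they came from separate cultures, so the p-values measure the spread between these samples, which may be technical. The comparisons ask what LPS did to these genes and what skatole did to them in LPS-treated cells.

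When LPS engages TLR4, the adaptor MyD88 gathers IRAK4, IRAK2 and IRAK1 into a complex that activates TRAF6, whose ubiquitin chains recruit TAB2 and TAK1, and TAK1 activates the IKK complex and MAP kinases. A second arm runs through the adaptor TRIF and TRAF3 to TBK1 and IKKε, which phosphorylate IRF3 and lead to type I interferon. IRAK3, also called IRAK-M, lacks kinase activity and is best known as a brake on this pathway in macrophages that have met LPS before. Much of this signaling is set by phosphorylation, ubiquitination and protein turnover, which RNA levels do not show.

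Levels were deposited as TPM, a transcript abundance scaled by transcript length and to a fixed total, which keeps no sequencing depth, so the depth behind each value is unknown and no counting error could be given. The columns summed to between 999895 and 1000145 TPM and held 12498 to 13012 genes at 1 TPM or more. In the LPS group, sample 5 was the mean of samples 6 and 7 within 1e-05 TPM for 17950 of the 17950 genes above 0 in both, and in the LPS + Ska group this held for 17658 of 17658. Among the DMSO columns it held for 0.06% of genes. The LPS and LPS + Ska groups therefore hold no more than 2 independent values for a gene. The values used in their place were sample 5 plus and minus 0.5 times its distance to the higher of samples 6 and 7. The factor of 0.5 rests on the genes with 1 of samples 6 and 7 at 0, where the other was never above 3 times sample 5 (0 of 4042 genes in LPS and 0 of 4047 in LPS + Ska) and was 3 times it in 3202 and 3124 (both within 2e-05 TPM), so that 1 of the 2 values comes to 0 in those genes and none falls below 0. Nothing in the sources describes this step, and samples 6 and 7 themselves, which are spread more widely, were used as the 2 values in an alternative chosen after seeing the data. Each mean ± SD and test below rests on 3 DMSO values and 2 values in each of the other groups. All 8 macrophage markers examined were at 1 TPM or more on average, the 3 T cell and the 3 epithelial markers were at 0 in every column, and the B cell and fibroblast markers summed to at most 0.672 and 0.0337 TPM. The summed macrophage markers were 11141 to 12097 TPM in DMSO, 5889 to 6213 in LPS and 11513 to 11690 in LPS + Ska. Lyz2, the lysozyme gene, made up most of this sum, and the other 7 markers summed to 2229 to 2424, 1586 to 1670 and 1483 to 1598 TPM. Csf1r and Spi1 passed both limits below DMSO in both LPS groups, Lyz2 was lower with LPS and higher again with skatole (1.19 against LPS), and Fcgr1 was lower with skatole (-0.59 against LPS). Under median-ratio scaling Fcgr1 (-0.48) and Csf1r with LPS (-0.58) were short of the fold limit, as were Csf1r and Spi1 without the trend with transcript GC content. Their part in the results below was not tested. Whether fewer of the cells expressed a marker or each cell held less of its RNA cannot be told apart in such bulk samples.

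The 150 bases before the start sites of 5 of the genes are shown, those of the 3 that passed both limits with LPS (Irak1, Irak3, Tab2) and of the 2 that passed adjusted p alone with skatole (Irak2, Traf3). Where RefSeq gives 2 starts, the stretch before the most upstream one is shown. They are from RefSeq on GRCm38.p6, 5′ to 3′ on the strand of the gene, and capitals mark matches to the NFκB consensus. The stretches are chrX:74023922-74024071 (minus strand) for Irak1, chr6:113638317-113638466 (plus strand) for Irak2, chr10:120202131-120202280 (minus strand) for Irak3, chr10:7956124-7956273 (minus strand) for Tab2 and chr12:111166220-111166369 (plus strand) for Traf3.
Irak1: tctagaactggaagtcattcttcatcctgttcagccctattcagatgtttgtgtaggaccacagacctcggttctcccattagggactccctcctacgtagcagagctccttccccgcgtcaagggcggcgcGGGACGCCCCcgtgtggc
Irak2: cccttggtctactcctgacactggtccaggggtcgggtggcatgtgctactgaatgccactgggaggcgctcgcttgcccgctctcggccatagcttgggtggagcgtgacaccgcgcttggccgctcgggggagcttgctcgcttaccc
Irak3: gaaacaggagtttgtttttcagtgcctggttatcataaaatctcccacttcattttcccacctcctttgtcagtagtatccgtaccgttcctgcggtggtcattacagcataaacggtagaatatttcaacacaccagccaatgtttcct
Tab2: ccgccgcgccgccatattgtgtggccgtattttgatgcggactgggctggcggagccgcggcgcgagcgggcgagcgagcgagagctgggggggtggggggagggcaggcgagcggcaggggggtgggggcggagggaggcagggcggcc
Traf3: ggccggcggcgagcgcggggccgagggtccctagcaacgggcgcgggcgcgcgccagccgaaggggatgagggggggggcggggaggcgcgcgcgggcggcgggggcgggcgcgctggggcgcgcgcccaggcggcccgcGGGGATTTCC
The Irak1 stretch held the NFκB letters GGGACGCCCC, which match on both strands, 18 bases before the start, and Traf3 held GGGGATTTCC in the last 10 bases before it. The stretches of Irak2, Irak3 and Tab2 held no match, nor did those before the second starts of Irak3 and Tab2. GC content was 58% in the Irak1 stretch, 66% in Irak2, 42.7% in Irak3 (67.3% before its second start), 77.3% in Tab2 (46% before its second start) and 86.7% in Traf3.

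In full windows of 300 bases (250 before and 50 after each start), both strands searched, all 10 genes were found in RefSeq with 13 windows, since Irak1, Irak3 and Tab2 have 2 starts each, and 4 of the 13, from 3 genes, held the NFκB consensus. The third gene was Map3k7, with GGAAATTCCC beginning 92 bases before the start. The 2 Irak1 windows (chrX:74023872-74024171 and chrX:74023869-74024168) are nearly the same stretch, so the same match is counted in both. Of all 32851 windows of this length, 8.459% held the consensus. The AP-1 core TGANTCA was in 1 of the 13, that of Ikbke, and in 7.808% of all windows, and the interferon-stimulated response element core, named ISRE, was in 0 of the 13 and in 3.443% of all windows. The GC box GGGCGG was in 10 of the 13 (76.9%) against 35.658% of all windows, the ETS core GAGGAA in 6 (46.2%) against 28.276%, and TATAAA in 0 against 13.616%. None of the NFκB matches overlapped another of these motifs. A match to letters is a description and not a binding site, and no binding was measured in these samples.

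Without LPS, Irak1 was the most abundant of the 10 genes, at 88.4 ± 8.57 TPM (SD, n = 3). Tbk1 at 76.3 and Tab2 at 70.7 TPM came next, with Irak1 and Tbk1 overlapping each other and Tbk1 and Tab2 likewise. Map3k7 followed at 36.3 TPM, apart from both neighbors. The other 6 genes lay between 23.5 (Irak2) and 12.2 TPM (Irak3), of which Irak2 and Traf3 overlapped each other, as did Irak4, Ikbke, Traf6 and Irak3 each with the next. In LPS the order was led by Tab2 at 113 TPM and Tbk1 at 90.0, with Map3k7 at 46.7 ahead of Irak1 at 40.0, and no 2 neighbors overlapped on their 2 values. In LPS + Ska, Tab2 at 95.5 and Tbk1 at 83.1 TPM again came first, Irak1 and Map3k7 overlapped at 39.3 and 35.8, and Irak4 was lowest at 12.1 TPM. So at the RNA level the TBK1 and TAB2 transcripts exceeded those of their partners Ikbke and Map3k7 in every group.

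**Figure D1:**
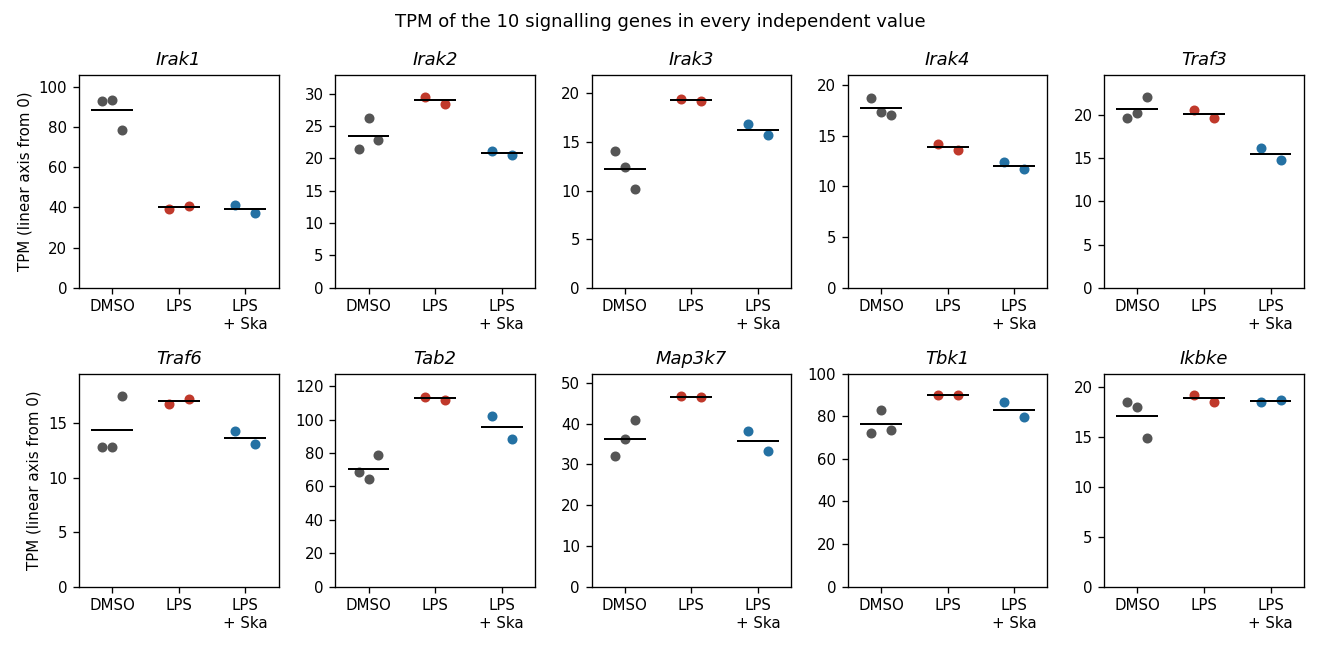
TPM (linear axis from 0) of the 10 genes in DMSO (grey), LPS (red) and LPS + Ska (blue). Points are the 3 DMSO columns and the 2 recovered values of each other group, and lines are means. Irak1 stands near 88.4 TPM in DMSO and near 40 in both LPS groups, and Irak3 and Tab2 are higher in LPS than in every DMSO value. The LPS and LPS + Ska values overlap for Irak1 and Ikbke and are lower in LPS + Ska for the others. Of all genes tested, 62.5% had a log2 fold change below 0 in that comparison.

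With LPS, Irak1 fell and Irak3 and Tab2 rose, and these 3 passed both limits (limma, Benjamini-Hochberg adjusted p below 0.05 over 12840 genes, and a fold change above 1.5 or below 0.67 on the log2(TPM + 1) scale). By these limits 2 of 10 genes were higher, beside 12.5% of all genes tested, and 1 of 10 was lower, beside 19.9%. By adjusted p alone 5 of 10 were higher, beside 24.6%, and 2 of 10 lower, beside 33.1%. The median log2 fold change of the 10 was 0.24, and that of all genes tested was -0.07. With samples 6 and 7 as the 2 values the calls by both limits were unchanged (Irak1 adjusted p = 2.91e-04, Irak3 0.0123, Tab2 0.00523), and the 4 genes past adjusted p but not the fold limit, Irak2, Irak4, Map3k7 and Tbk1, no longer passed it (0.0712 to 0.110).

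Irak1 (ENSMUSG00000031392, chrX:74013914-74023918, minus strand, mm10), the kinase that links the receptor complex to TRAF6, gave 93.1, 93.6 and 78.6 TPM in DMSO samples 5, 6 and 7, and 40.0, 38.8 and 41.3 in LPS. Every LPS value was below every DMSO value. The log2 fold change was -1.12 (SE 0.0939, adjusted p = 3.85e-05), from 88.4 ± 8.57 (n = 3) to 40.0 ± 0.857 TPM (n = 2). Irak4 (ENSMUSG00000059883, chr15:94543643-94581815, plus strand), the kinase that acts first in the complex, went the same way by less. Its values were 18.7, 17.4 and 17.0 TPM in DMSO and 13.9, 14.4 and 13.3 in LPS, with a log2 fold change of -0.33 (adjusted p = 0.0162), short of the fold limit, and -0.24 (adjusted p = 0.0555) under median-ratio scaling. In the annotation 395 of the 5021 exonic bases of Irak4 overlap exons of Twf1 on the opposite strand, as do 192 of Irak3 with Tmbim4, 196 of Irak2 with Gm43963 and 159 of Ikbke with Gm28914. Whether counting used strand is not given in the sources used here, so reads from these stretches cannot be told apart.

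Irak3 (ENSMUSG00000020227, chr10:120141648-120202130, minus strand), the brake of the family, gave 14.1, 12.4 and 10.2 TPM in DMSO and 19.4, 19.6 and 19.1 in LPS. The lowest LPS value lay above the highest DMSO value. Its log2 fold change was 0.63 (SE 0.131, adjusted p = 0.00363), and without DMSO sample 7, its lowest, the log2 fold change was 0.52 (adjusted p = 0.00391) and fell short of the fold limit. Irak2 (ENSMUSG00000060477, chr6:113638467-113695026, plus strand), which sustains signaling through TRAF6, gave 21.4, 26.2 and 22.9 TPM in DMSO and 29.0, 30.0 and 27.9 in LPS. The groups did not overlap, but the log2 fold change of 0.30 (adjusted p = 0.0327) was short of the fold limit, and without DMSO sample 5 or 7 the adjusted p was 0.0649 or 0.0609. With either LPS value left out, neither Irak2 nor Irak4 passed adjusted p (0.0846 to 0.181).

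The make-up of the IRAK family therefore differed between DMSO and LPS. Irak1 was 61.1% to 63.2% of the summed TPM of the 4 Irak genes in the DMSO samples and 38.5% to 39.9% in LPS. Irak3 was 7.93% to 9.54% in DMSO and 18.9% to 19.0% in LPS, and the ratio of Irak1 to Irak3 was 6.62 to 7.71 in DMSO and 2.03 to 2.11 in LPS. The summed TPM of the family was 128.6 to 149.6 in DMSO and 101.9 to 102.5 in LPS. For these 4 quantities the groups did not overlap, and a two-sided exact permutation test gave p = 0.1, the smallest that 3 against 2 values allow. The share of Irak2 also rose, from 14.5% to 17.8% in DMSO to 27.9% to 28.7% in LPS (exact permutation p = 0.1). The share of Irak4 was 11.6% to 13.2% in DMSO and 13.3% to 13.8% in LPS, although its TPM was lower in LPS. The 4 shares have a common total, so with a lower share of Irak1 those of the others rise as a whole. Their shifts are therefore not separate evidence of a change in Irak2 or Irak4.

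**Figure D2:**
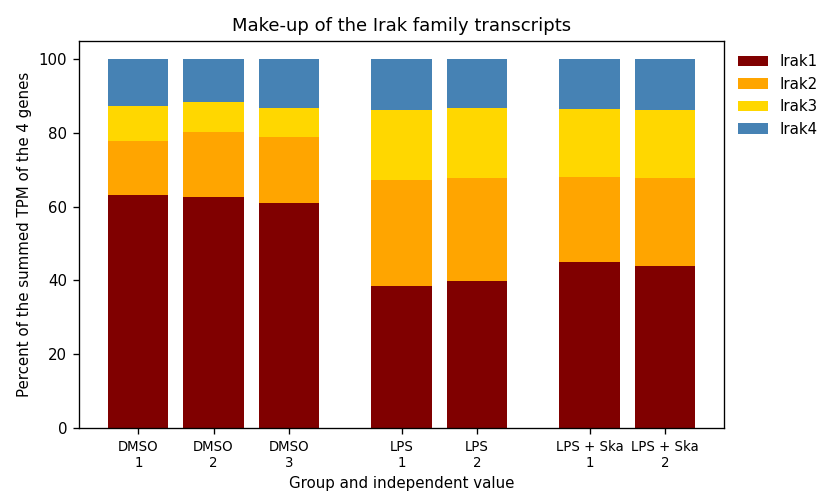
Stacked bars give the percent of the summed TPM of Irak1, Irak2, Irak3 and Irak4 in each of the 3 DMSO, 2 LPS and 2 LPS + Ska values (vertical axis 0 to 100 percent). Irak1 makes up 61.1% to 63.2% in DMSO, 38.5% to 39.9% in LPS and 43.8% to 45.0% in LPS + Ska.

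Of the genes downstream of the IRAK kinases, Tab2 passed both limits. Tab2 (ENSMUSG00000015755, chr10:7905653-7956230, minus strand), which reads K63-linked ubiquitin chains and brings TAK1 to them, gave 68.9, 64.5 and 78.7 TPM in DMSO and 113, 114 and 111 in LPS, a log2 fold change of 0.67 (SE 0.0978, adjusted p = 6.06e-04). Each LPS value was above each DMSO value. Map3k7 (ENSMUSG00000028284, chr4:31964097-32023467, plus strand), the TAK1 kinase itself, gave 32.0, 36.1 and 40.9 TPM in DMSO and 46.7, 47.0 and 46.4 in LPS, with a log2 fold change of 0.36 (adjusted p = 0.0232). Traf6 (ENSMUSG00000027164, chr2:101678429-101701669, plus strand), the ligase that builds those chains, gave 12.8, 12.8 and 17.6 TPM in DMSO and 17.0, 16.6 and 17.5 in LPS. DMSO sample 7 stood above all LPS values, and the log2 fold change of 0.24 did not pass (adjusted p = 0.181), whereas without that sample it was 0.38 (adjusted p = 0.0112).

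In the TRIF arm, no gene passed both limits with LPS. Tbk1 (ENSMUSG00000020115, chr10:121546455-121586787, minus strand), the main IRF3 kinase, gave 72.4, 83.2 and 73.5 TPM in DMSO and 90.0, 89.9 and 90.2 in LPS, with a log2 fold change of 0.24 (adjusted p = 0.0324). Neither Tbk1 nor Map3k7 passed adjusted p with either LPS value left out (0.104 to 0.147), nor Tbk1 without DMSO sample 5 or 7 (0.0714 and 0.0677). Ikbke (ENSMUSG00000042349, chr1:131254343-131279606, minus strand), its inducible relative, gave 18.5, 17.9 and 14.8 TPM in DMSO and 18.8, 19.5 and 18.2 in LPS, with a log2 fold change of 0.14 (adjusted p = 0.308). Traf3 (ENSMUSG00000021277, chr12:111166370-111267153, plus strand), the adaptor that carries the signal to TBK1, gave 19.7, 20.2 and 22.1 TPM in DMSO and 20.2, 21.1 and 19.3 in LPS. Its groups overlapped, and its log2 fold change of -0.03 (95% interval -0.24 to 0.18, adjusted p = 0.793) was 0.06 when TPM was scaled by the median ratio across genes. The ratio of Tbk1 to Ikbke was 3.92 to 4.95 in DMSO and 4.70 to 4.87 in LPS (exact permutation p = 0.8).

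**Figure D3:**
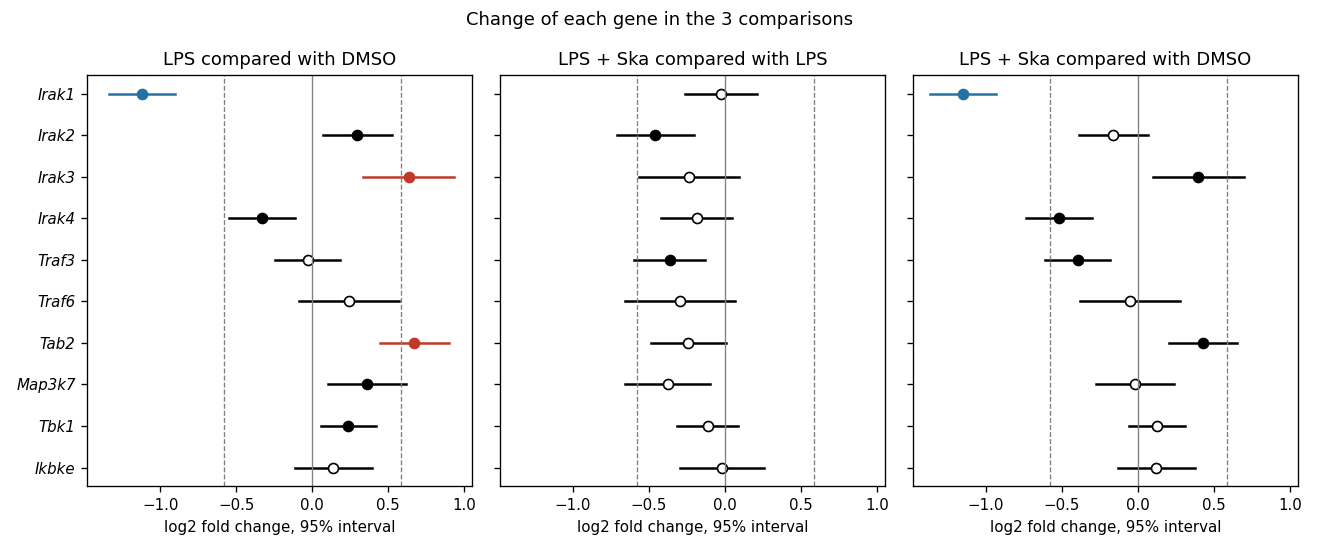
Points are log2 fold changes of the 10 genes on the log2(TPM + 1) scale and bars their 95% intervals, in the 3 comparisons. Red and blue mark genes past both limits (higher and lower), filled black points pass adjusted p alone, and dashed lines are the fold limits. Irak1 lies at -1.12 and -1.15 against DMSO, and all 10 points lie below 0 in LPS + Ska compared with LPS.

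The change with LPS followed the GC content of transcripts across all genes. The median log2 fold change ran in 5 equal groups of genes from 0.37 at the lowest GC content through 0.17, -0.08 and -0.32 to -0.57 at the highest (12826 of the 12840 genes tested had a GC value, from the longest transcript in GENCODE M21). Map3k7 (45.2% GC), Tbk1 (45.4%) and Traf6 (45.7%) lay in the group with a median of 0.17, and Irak1 (52.8%), Traf3 (52.9%) and Irak2 (53.1%) in that at -0.32. With this trend removed from each column, the log2 fold changes were 0.11 for Map3k7 (adjusted p = 0.398) and 0.004 for Tbk1 (adjusted p = 0.967), neither past the test. Irak1 was at -0.92 and Irak3 and Tab2 at 0.66 and 0.61, all still past both limits. Irak2 was then at 0.51 (adjusted p = 0.00427). The part of this trend in the changes was not tested further. Between LPS + Ska and LPS the medians of the 5 groups were nearly level, at -0.06 to -0.10.

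**Figure D4:**
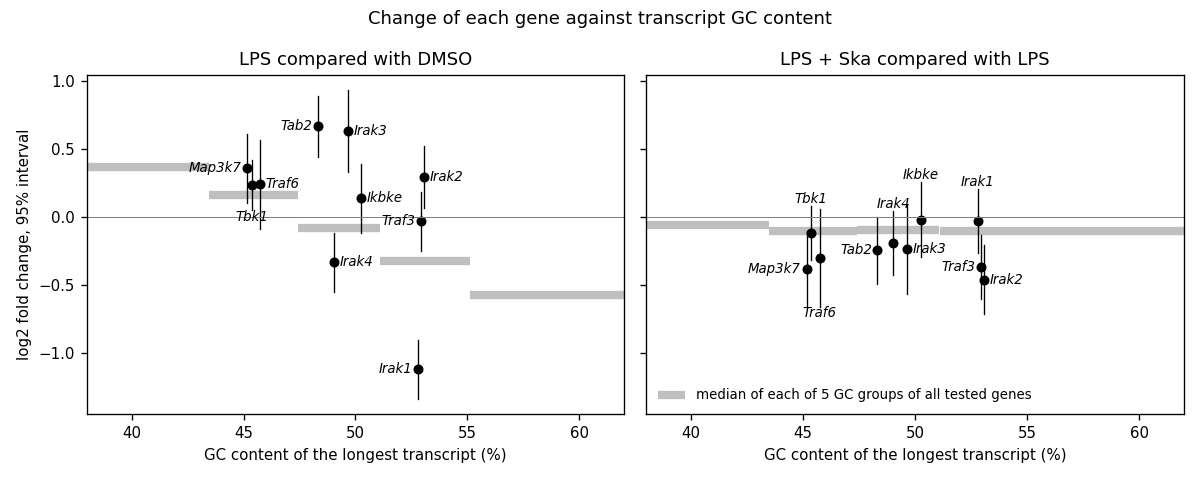
Log2 fold change with its 95% interval (vertical axis) against transcript GC content in percent (horizontal axis) for the 10 genes, in LPS compared with DMSO (left) and LPS + Ska compared with LPS (right). Grey bars are the medians of 5 GC groups of all tested genes, which run from 0.37 to -0.57 on the left and stay between -0.06 and -0.10 on the right. On the left the intervals of Map3k7, Tbk1, Traf6 and Ikbke span the median of their group, those of Irak1 and Irak4 lie below theirs, and those of Irak2, Irak3, Traf3 and Tab2 lie above.

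With skatole added to LPS, all 10 genes had a log2 fold change below 0, and none passed both limits. By both limits 0 of 10 were higher, beside 2.8% of all genes tested, and 0 of 10 lower, beside 4.92%. By adjusted p alone 0 of 10 were higher, beside 5.85%, and 2 of 10 lower, beside 12.6%. At an unadjusted limma p below 0.05 Map3k7 joined Irak2 and Traf3, but the share of all genes at that limit was not taken. The median of the 10 was -0.24, against -0.09 for all genes tested, 62.5% of which were below 0. Scaling TPM by the median ratio across genes shifted all log2 fold changes of this comparison up by about 0.10, and then 8 of the 10 were below 0, with Irak1 at 0.08 and Ikbke at 0.09.

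Irak2 and Traf3 were the 2 genes that passed adjusted p alone. Irak2 gave 20.8, 21.5 and 20.1 TPM in LPS + Ska, below all LPS values and under the DMSO mean of 23.5. Its log2 fold change was -0.46 (SE 0.109, adjusted p = 0.0252), and -0.35 (adjusted p = 0.0532) under median-ratio scaling. Traf3 gave 15.5, 16.9 and 14.1 TPM, below all LPS and all DMSO values. Its log2 fold change was -0.36 against LPS (SE 0.102, adjusted p = 0.0428) and -0.39 against DMSO (adjusted p = 0.00635), which became -0.26 (adjusted p = 0.0844) and -0.20 (adjusted p = 0.067) under median-ratio scaling. Against DMSO Traf3 was at -0.19 (adjusted p = 0.133) without the GC trend. With samples 6 and 7 as the 2 values, neither Irak2 (adjusted p = 0.108) nor Traf3 (adjusted p = 0.193) passed against LPS. Neither passed adjusted p against LPS when any 1 of the 4 LPS or LPS + Ska values was left out (0.0773 to 0.265), nor Traf3 without DMSO sample 6 (0.0522).

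For Map3k7 the values in LPS + Ska were 35.8, 40.8 and 30.8 TPM, below all LPS values and overlapping those of DMSO, with a log2 fold change of -0.38 (95% interval -0.66 to -0.10, adjusted p = 0.065). Without DMSO sample 5 or 7, which changes the shared estimate of spread, its adjusted p was 0.0324 or 0.0342. Traf6 gave 13.7, 14.9 and 12.5 TPM and a log2 fold change of -0.30 (95% interval -0.66 to 0.06, adjusted p = 0.223). Tab2 gave 95.5, 109 and 81.6 TPM, between the DMSO and LPS values, and its log2 fold change was -0.24 (95% interval -0.49 to 0.00425, adjusted p = 0.153). All LPS + Ska columns of these 3 genes were lower than all their LPS columns, but the spread between the recovered values was wider with skatole, at an SD of 9.78 against 1.09 TPM for Tab2 and 3.55 against 0.194 for Map3k7.

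Irak3 gave 16.3, 17.3 and 15.2 TPM in LPS + Ska, between its DMSO and LPS values, with a log2 fold change against LPS of -0.24 (95% interval -0.57 to 0.09, adjusted p = 0.286). Irak4 gave 12.1, 12.8 and 11.3 TPM, its lowest values in the series, with -0.19 (95% interval -0.42 to 0.05, adjusted p = 0.238). Tbk1 gave 83.1, 90.3 and 76.0 TPM, of which sample 6 reached above the LPS values, and its log2 fold change was -0.12 (95% interval -0.32 to 0.09, adjusted p = 0.392). Irak1 gave 39.3, 43.0 and 35.5 TPM and Ikbke 18.6, 18.4 and 18.8, both overlapping their LPS values. Their log2 fold changes against LPS were -0.03 (95% interval -0.27 to 0.21, adjusted p = 0.872) and -0.02 (95% interval -0.29 to 0.26, adjusted p = 0.937). The share of Irak1 in the family was 43.8% to 45.0% and that of Irak2 23.1% to 24.0%, against 27.9% to 28.7% for Irak2 in LPS. These did not overlap, but 2 against 2 values allow no exact permutation p below 0.333.

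Set against DMSO, LPS + Ska left Irak1 as the 1 gene past both limits. Its log2 fold change was -1.15 (SE 0.0939, adjusted p = 2.73e-05), and without the GC trend -0.95. The comparison with DMSO shares its control samples with that of LPS, so the likeness of their values is not independent. By both limits 0 of 10 genes were higher, beside 11.2% of genes tested, and 1 of 10 lower, beside 25.2%. By adjusted p alone 2 of 10 were higher, beside 21.5%, and 3 of 10 lower, beside 39.2%. The higher ones were Irak3 at 0.40 (adjusted p = 0.0286) and Tab2 at 0.43 (adjusted p = 0.00543), both past the fold limit under median-ratio scaling at 0.59 and 0.63. Irak3 lost adjusted p when any LPS or LPS + Ska value was left out (0.0537 to 0.145), and Tab2 and Traf3 each without 1 of the LPS + Ska values (0.056 and 0.0502). With samples 6 and 7 as the 2 values Irak3 lost it too (0.0679). Irak4, at -0.52 (adjusted p = 0.00163), was lower together with Irak1 and Traf3. Irak2, Traf6, Map3k7, Tbk1 and Ikbke did not pass, at -0.16, -0.06, -0.02, 0.12 and 0.12. The median of the 10 was -0.04 and that of all genes tested -0.18.

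Around these genes, partner lists were read in the same fit. At the receptor, LPS was followed by lower Tlr4, the LPS receptor, at -0.68 (adjusted p = 9.08e-04), and by higher Ly96, the MD-2 co-receptor, at 0.84 (adjusted p = 0.00842), so that 1 of 7 receptor and adaptor genes passed both limits in each direction, beside 12.5% (higher) and 19.9% (lower) of all genes tested. The Ly96 call was lost without the GC trend (0.40, adjusted p = 0.162), without 1 of the LPS values (0.70, adjusted p = 0.0691) and with no filter on low values (adjusted p = 0.0599). With skatole added, 0 of 7 passed both limits, beside 2.8% and 4.92%, and Cd14, which hands LPS to that receptor, passed adjusted p alone at 0.54 (adjusted p = 0.00128). Under median-ratio scaling Cd14 and Ly96 passed both limits, at 0.65 and 0.87. Against DMSO, 2 of 7 were higher with LPS + Ska, beside 11.2%, Ly96 at 1.60 and Cd14 at 0.77.

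Among the 5 IKK and TAB partners, 1 passed both limits downward with LPS, beside 19.9% of all genes tested, and 0 upward, beside 12.5%. By adjusted p alone 2 of 5 were higher, beside 24.6%, and 1 lower, beside 33.1%. The higher ones were Chuk at 0.56 (adjusted p = 5.34e-04) and Tab3 at 0.55 (adjusted p = 0.0405). Under median-ratio scaling Chuk and Tab3 passed both limits, at 0.66 and 0.64, and without the GC trend each was at 0.12. Tab1, which holds TAK1 in its active form, fell from 23.9 ± 0.614 to 8.79 ± 0.190 TPM with LPS (log2 fold change -1.35, adjusted p = 1.22e-05), the opposite direction to Tab2, and -0.86 without the GC trend. It stayed lower than DMSO with LPS + Ska, at -1.12. The 5 scaffold genes of TBK1 had 4 tested, of which 2 passed both limits upward with LPS, beside 12.5% of all genes tested. Tank and Azi2, which encode scaffolds that hold TBK1 and IKKε, rose from 76.9 to 150 TPM (0.96, adjusted p = 1.45e-05) and from 57.9 to 96.8 TPM (0.73, adjusted p = 1.03e-04). Their log2 fold changes without the GC trend were 0.46 and 0.37 and fell short of the fold limit. In LPS + Ska compared with DMSO, 2 of the 4 scaffolds passed both limits upward, beside 11.2% of all genes tested, and 1 downward, beside 25.2%. Tank and Azi2 were higher, at 1.11 and 0.59 (adjusted p = 6.98e-06 and 2.62e-04). Both were short of the fold limit without the GC trend (0.58 and 0.22). The scaffold Tbkbp1 was lower, at -0.59 (adjusted p = 2.27e-04). It was short of the fold limit under median-ratio scaling (-0.39) and without DMSO sample 5 or 1 of the LPS + Ska values (-0.56 and -0.57). Without the GC trend Tbkbp1 was at 0.003. Between LPS + Ska and LPS, 0 of the 5 partners and 0 of the 4 scaffolds passed both limits, beside 2.8% higher and 4.92% lower of all genes tested. Ikbkg, the regulatory subunit of the IKK complex, was at 0.49 (adjusted p = 0.030). It passed both limits under median-ratio scaling (0.59, adjusted p = 0.0138) and without the length trend (0.62), and was at 0.66 without 1 of the LPS + Ska values. It lost adjusted p with samples 6 and 7 as the 2 values (0.247). Ikbkb, of the same complex, went the other way at -0.46 (adjusted p = 0.0127), and at -0.36 (adjusted p = 0.0309) under median-ratio scaling. Chuk, also of that complex, was at -0.01 (adjusted p = 0.943).

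Of 10 ubiquitin enzymes 8 were tested, and with LPS 1 passed both limits upward and 2 downward, beside 12.5% and 19.9% of all genes tested. Peli1, a ligase that acts on IRAK1, rose from 23.0 to 45.1 TPM (0.95, adjusted p = 7.26e-05), at 0.46 without the GC trend. Rbck1 and Sharpin, parts of the linear ubiquitin assembly complex, fell by 0.65 each on the log2 scale (adjusted p = 1.12e-04 and 9.92e-04), at -0.11 and -0.33 without that trend, and short of the fold limit under median-ratio scaling at -0.56 and -0.55. With skatole added all 8 were below 0, as were 62.5% of all genes tested, and 6 of 8 were under median-ratio scaling. By adjusted p alone 3 of 8 were lower, beside 12.6%, and none of the 3 with samples 6 and 7 as the 2 values (0.0525 to 0.216). Rbck1 went from 72.2 ± 3.68 in LPS to 51.4 ± 0.873 TPM (-0.48, adjusted p = 0.00556). Among 6 deubiquitinases and inhibitors, Tnip1, which binds A20, rose from 52.9 to 105.7 TPM with LPS (0.99, adjusted p = 1.67e-05) and stood at 79.2 TPM with LPS + Ska (-0.41 against LPS, adjusted p = 0.0102, and 0.0646 with samples 6 and 7 as the 2 values). It was the 1 of 6 past both limits with LPS, beside 12.5% upward.

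Of the 5 other TRAF genes, Traf1, a known NFκB target, rose from 13.0 ± 2.12 to 33.4 ± 2.70 TPM with LPS (1.31, adjusted p = 1.04e-04), the 1 of 5 past both limits upward, beside 12.5%. In LPS + Ska compared with DMSO, 1 of 5 passed both limits upward, beside 11.2% of all genes tested, and 2 of 5 downward, beside 25.2%. Traf1 was the higher one, at 0.92 (adjusted p = 5.22e-04), and Traf2 and Traf7 were lower, at -0.86 and -0.68. Traf7 was short of the fold limit under median-ratio scaling (-0.48) and without the GC trend (-0.44). Among the 6 transcription factors and NFκB genes, LPS was followed by higher Irf7 and Nfkb1 (4.54 and 0.78) and by lower Irf3, Irf5 and Rela (-0.97, -1.02 and -0.68), 2 and 3 of 6 beside 12.5% and 19.9%, and without the GC trend Nfkb1 (0.52), Irf3 (-0.56) and Rela (-0.15) were short of the fold limit. Irf7, an interferon-induced factor, stood at 2.29 to 5.26 TPM in DMSO, 91.7 to 100.4 in LPS and 33.9 to 42.2 in LPS + Ska. All 6 were below 0 with skatole added, as were 62.5% of all genes tested, and 5 of 6 were under median-ratio scaling. Irf7 passed both limits (-1.32, adjusted p = 0.0166), 1 of 6 beside 4.92%, and 4 of 6 were lower by adjusted p, Irf7 included, beside 12.6%. The Irf7 call was lost without any 1 of the 4 LPS or LPS + Ska values (0.069 to 0.109), with no filter on low values (0.078) and with samples 6 and 7 as the 2 values (0.0585), its log2 fold change running from -1.17 to -1.47.

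**Figure D5:**
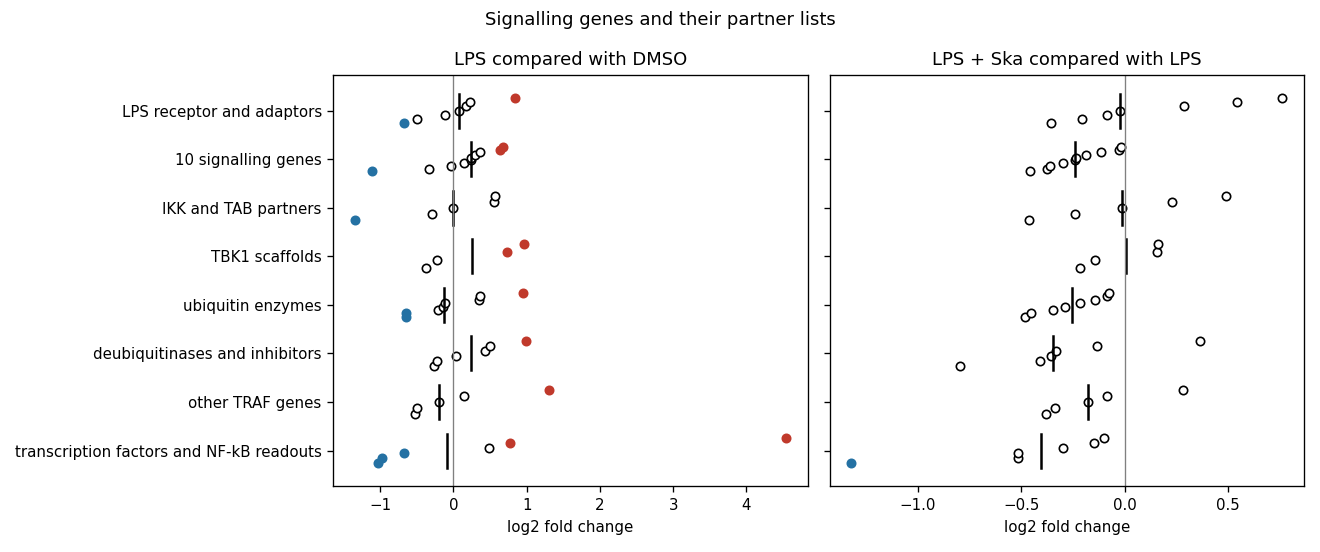
Each point is the log2 fold change of a gene (horizontal axis) in the 10 signaling genes and 7 partner lists (rows), for LPS compared with DMSO and LPS + Ska compared with LPS. Red and blue points passed both limits, open points did not, and black lines are list medians. With skatole the medians are -0.24 for the 10 genes, -0.25 for the ubiquitin enzymes and -0.41 for the transcription factors, against -0.09 for all genes tested. They are -0.35 for the deubiquitinases and inhibitors and -0.18 for the other TRAF genes. Above that of all genes lie the IKK and TAB partners (-0.01), the TBK1 scaffolds (0.005) and the LPS receptor and adaptors (-0.02).

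Genes with the pattern most like that of Irak1, Irak3 and Tab2 were read from the Pearson correlation of log2(TPM + 1) over the 7 values, given as a description since the points share 3 groups. For Irak1 they were Abcb8, Dda1 and Sfn (each r = 0.998), and 1229 tested genes reached 0.95. Irak3 was followed most closely by Hibadh (r = 0.998), Tmem161b (0.997) and Gdap2 (0.996), with 67 genes at 0.95 or more. For Tab2 they included Ppfibp1 (r = 0.997) and Ammecr1 (r = 0.995), with 524 genes at 0.95 or more. At this limit fewer tested genes were counted for Irak3 than for Irak1 and Tab2. Such a count depends on the spread within groups as well as on the differences between them.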

How the data were processed

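RNA from RAW264.7 macrophages in 3 groups of 3 samples was sequenced by the authors and deposited as TPM (transcript abundance scaled by length and to a fixed total) in 1 table of 55401 Ensembl identifiers, 55141 of which matched a symbol. Per the submitters' processing notes, fastp 0.20.1, HISAT2 2.2.1, StringTie 2.0 and mm10 were used. The annotation and the use of strand are not given in the sources used here, and the sources differ on the treatment time, for which the labels' 24 h is given. Values of the LPS and LPS + Ska groups were replaced by 2 values per gene (sample 5 plus and minus 0.5 times its distance to sample 6), and nothing in the sources describes how these columns came to be tied.

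Differences were tested with limma 3.58.1 (R 4.3.3) on log2(TPM + 1), with an intensity trend, in 1 fit of the 12840 genes at a mean TPM of at least 1, two-sided, with Benjamini-Hochberg adjustment over all of them. This scale understates changes of low genes. Fold limits of 1.5 and 0.67 follow the study's volcano plot. The fit was checked on simulated data. Figures were drawn with matplotlib 3.10.9. Coordinates are those of GENCODE M21 on GRCm38 (mm10), and upstream sequences are from RefSeq.

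All 10 genes are reported. Of the partner lists, genes that passed both limits in at least 1 comparison were named, and besides them Ikbkg, Ikbkb, Chuk and Tab3, which did not. The 10 genes and all lists were chosen with earlier results of these data known. Same-numbered samples of LPS and LPS + Ska deviated together (r = 0.38, 0.15 and 0.13), but these columns are tied and other pairs of groups gave r from -0.032 to 0.080, so samples with equal numbers were treated as unpaired. Alternatives were other pseudocounts, filters, scalings and fits, the columns as deposited with and without a replicate block, each value left out in turn, and, added after seeing the data, removal of the trend with transcript GC content or length (loess) and samples 6 and 7 as the 2 values of LPS and of LPS + Ska. Genes with a pattern like that of a called gene were the 3 with the highest Pearson correlation, of which 1 is not reported here.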

Additional observations from a re-analysis of the deposited data

How the results depend on the processing

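The 3 calls with LPS (Irak3 and Tab2 higher, Irak1 lower) and the Irak1 call with LPS + Ska compared with DMSO were kept under all other pseudocounts, filters, scalings and fits, without the GC or length trend, and with samples 6 and 7 of LPS and LPS + Ska as the 2 values. Leaving out 1 value gave 1 to 2 genes higher with LPS, the 1 without DMSO replicate 7, where Irak3 was lost. With adjusted p alone the counts were 5 higher and 2 lower with LPS, 2 lower with skatole added to LPS, and 2 higher and 3 lower for LPS + Ska compared with DMSO. Median-ratio scaling made 2 genes higher in the last comparison, Irak3 and Tab2. In that setting Tbk1 (0.33, adjusted p = 0.00623) and Ikbke (0.32, adjusted p = 0.0439) also passed adjusted p against DMSO. This scaling shifted the log2 fold changes of all genes by a median of 0.09, 0.10 and 0.20 in the 3 comparisons. It moved the share of higher genes among all calls from 38.7% to 49.0%, from 36.2% to 55.5% and from 30.7% to 50.7%. Log2 fold changes near 0 changed sign in several settings. Under median-ratio scaling these were Traf3 with LPS (0.063), Irak1 and Ikbke with skatole (0.077 and 0.085), and Irak2, Traf6 and Map3k7 for LPS + Ska compared with DMSO (0.036, 0.14 and 0.18). Without mitochondrial and ribosomal protein genes they were Traf3 (0.0057) and Map3k7 (0.035). Without the GC trend they were Traf3 (0.17), Irak2 (0.051) and Tbk1 (-0.098), and without the length trend Ikbke (0.074). Over the left-out values, Traf3 with LPS ran from -0.063 to 0.015, Irak1 and Ikbke with skatole from -0.096 to 0.038 and -0.041 to 0.0059, and Traf6 and Map3k7 against DMSO from -0.13 to 0.086 and -0.12 to 0.080. For none of these was the cause tested. Without the length trend Traf3 with skatole (-0.23, adjusted p = 0.114) and Map3k7 with LPS (0.25, adjusted p = 0.0566) lost adjusted p. Under median-ratio scaling Irak4 with LPS (-0.24, adjusted p = 0.0555) and without the GC trend Traf3 for LPS + Ska compared with DMSO (-0.19, adjusted p = 0.133) lost it too.

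With the columns as deposited, the replicate block gave 1649 genes higher and 2586 lower with LPS, 427 and 771 with skatole, and 1469 and 3260 for LPS + Ska compared with DMSO, against 1630 and 2559, 429 and 787, and 1457 and 3243 without the block. The counts among the 10 genes did not differ, with 2 higher and 1 lower with LPS, 0 and 0 with skatole, and 0 and 1 against DMSO. Of all genes, 1610 were higher with LPS and 1000 without the GC trend, and 1435 were higher with LPS + Ska against DMSO, 936 without that trend and 2258 under median-ratio scaling. The skatole counts of 359 higher and 632 lower ran from 145 to 424 and from 169 to 751 when 1 value was left out, and were 152 and 225 with samples 6 and 7 as the 2 values. In that setting 4 of the 10 genes lost adjusted p with LPS, 2 with skatole (Irak2 and Traf3, which left none) and 1 (Irak3) for LPS + Ska compared with DMSO. With 1 value left in a group, that value was assumed to vary like the others. TPM gives no depth, so counting error could not be separated from other spread.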
